A study of Mus musculus with 24 samples.

Results

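The 46 genes described here were higher in macrophages grown from induced pluripotent stem cells (iPSCs) than in macrophages grown from mouse bone marrow (BM) at every time measured. They were chosen from a count table of 47643 genes by their level alone. A gene was a member where its mean in iPSC-derived cells was at least 10 CPM (the count divided by the library total, times 1000000) and at least 3 times the BM mean at each of days 0, 3, 6 and 12. Unnamed gene models and several families, among them the C-C chemokines, cathepsins, collagens and Igf2bp genes, were left out by symbol, which removed 10 of 56 genes. The iPSC-to-BM gap therefore chose the members, and it is given below as a description with no test.

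The study placed both kinds of macrophage in co-culture and sampled them over time. The 24 libraries fall into 8 groups of 3. iPSC-derived cells were sampled at day 0 without co-culture and at days 3, 6 and 12 of co-culture, and BM-derived cells were sampled in the same way. In the design text the cells are iMac and BM-Mac before co-culture and iMicro and BM-Micro in it, the replicates are independent, and the day 0 samples come from the same batch as the others. The cells grown alongside, the mouse strain and the number of iPSC lines are not given in the sources used here, and day 0 differs from the later days in both time and co-culture, which cannot be told apart.

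Macrophages come from more than one source in the embryo and adult. An early wave from the yolk sac seeds tissues such as the brain, where its progeny become microglia, and later waves from blood stem cells supply monocytes and bone marrow macrophages. Macrophages made from iPSCs are used as a model of the early wave, and co-culture with brain cells is a common way to move cultured macrophages towards a microglia-like state.

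Library totals ran from 5839316 to 11805478 assigned read pairs, and 15357 to 18321 genes had at least 1 count. All 12 macrophage markers examined, among them Csf1r, Adgre1, Cd68 and Ptprc, were detected in every library of both sources. Csf1r ran from 1019 to 4440 CPM in iPSC-derived libraries and from 3765 to 5184 CPM in BM-derived libraries. Replicates correlated at 0.921 to 0.969 on the log2 CPM scale.

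The promoters of 3 members are printed first because these genes mark the range of the pattern. Spp1 was the most abundant member, Ptchd1 was the only one with no count in any BM-derived library, and Serpine2 had a large change within BM-derived cells. Each sequence runs from 250 bases before to 50 bases after the gene's start, as 300 bases 5′ to 3′ on the gene's own strand, from RefSeq on GRCm38.p6. In Spp1 (chr5:104434861-104435160, plus strand) capitals mark AGGAAGT, a core bound by PU.1, the lineage factor of macrophages. In Ptchd1 (chrX:155623278-155623577, minus strand) and Serpine2 (chr1:79858616-79858915, minus strand) they mark each CG pair. The windows follow RefSeq starts, while gene coordinates in the text are those of the count table's annotation, and the Ptchd1 and Serpine2 windows lie inside the count table's gene.
Spp1: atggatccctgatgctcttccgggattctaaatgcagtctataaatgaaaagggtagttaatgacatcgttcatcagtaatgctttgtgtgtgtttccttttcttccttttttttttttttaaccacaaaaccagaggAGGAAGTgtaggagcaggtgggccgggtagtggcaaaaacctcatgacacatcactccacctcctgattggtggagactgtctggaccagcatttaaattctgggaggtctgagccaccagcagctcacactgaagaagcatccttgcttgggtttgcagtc
Ptchd1: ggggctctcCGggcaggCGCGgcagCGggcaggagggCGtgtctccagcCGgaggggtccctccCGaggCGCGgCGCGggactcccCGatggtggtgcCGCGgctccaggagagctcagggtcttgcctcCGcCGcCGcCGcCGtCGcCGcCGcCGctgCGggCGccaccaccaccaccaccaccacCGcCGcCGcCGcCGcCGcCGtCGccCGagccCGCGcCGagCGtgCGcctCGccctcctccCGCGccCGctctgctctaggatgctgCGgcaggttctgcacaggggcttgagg
Serpine2: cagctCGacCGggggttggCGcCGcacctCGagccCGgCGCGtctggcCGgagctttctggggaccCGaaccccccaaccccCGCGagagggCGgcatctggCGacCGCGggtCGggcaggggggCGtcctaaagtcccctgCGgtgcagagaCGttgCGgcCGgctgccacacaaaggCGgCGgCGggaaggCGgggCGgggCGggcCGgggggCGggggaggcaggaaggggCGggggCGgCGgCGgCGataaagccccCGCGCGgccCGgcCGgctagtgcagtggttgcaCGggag

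The Spp1 promoter held 3 CG pairs and a GC share of 45.3%, and the AGGAAGT match began at base 139 of the window. The Ptchd1 and Serpine2 promoters held 44 and 41 CG pairs, with GC shares of 79.0% and 77.7%. A promoter was found for 30 of the 46 members. AGGAAGT, searched on both strands, was in 6 of those 30 (20.0%), in 9.81% of promoters of genes at the same iPSC level and in 9.52% of all 27025 promoters. The TATA-box letters TATAAA were in 13.3% of members' promoters, 6.06% at the same level and 14.2% of all, and TGANTCA, the AP-1 core, was in 3.33%, 4.43% and 7.92%. A ratio of observed to expected CG pairs of at least 0.6, the usual mark of a CpG island, was met by 53.3% of members' promoters, by 79.8% at the same level and by 36.5% of all. These shares are descriptions of the letters in the windows.

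All 46 members are protein-coding. They lay on 19 chromosomes, and no pair was closer than 2132 kb. Their median gene span was 56.3 kb, against 25.01 kb for the 7227 genes with kept symbols at the iPSC floor. At that floor, 0.637% of genes met the rule. The mirror rule, with BM-derived cells at the floor and 3 times higher, was met by 63 genes. The number passing at a single day was 797 at day 0, 245 at day 3, 317 at day 6 and 132 at day 12, so day 12 was the tightest step of the rule.

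Across the members, the median ratio of the iPSC mean to the BM mean was 13.3 at day 0, 13.4 at day 3, 10.1 at day 6 and 7.59 at day 12. The number of members at least 10-fold apart was 29, 27, 23 and 17 on those days. At each of days 0, 3 and 6 the 3 iPSC-derived libraries lay above the 3 BM-derived libraries for all 46 members, and at day 12 they did so for all but Vangl1. Among the 7227 genes at the iPSC floor, 2.55% had no overlap at all 4 days, and since the rule used this contrast the count is not evidence about the members. For 42 members the lowest of 12 iPSC-derived libraries was above the highest of 12 BM-derived libraries, and the exceptions were Afap1l1, Vangl1, Plxdc2 and Mgll. The rule used this contrast too, and the matching share of all genes was not computed. This count is therefore not evidence about the members either. In bulk libraries, a smaller number of cells that express a gene and less RNA in each cell cannot be told apart.

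**Figure D1:**
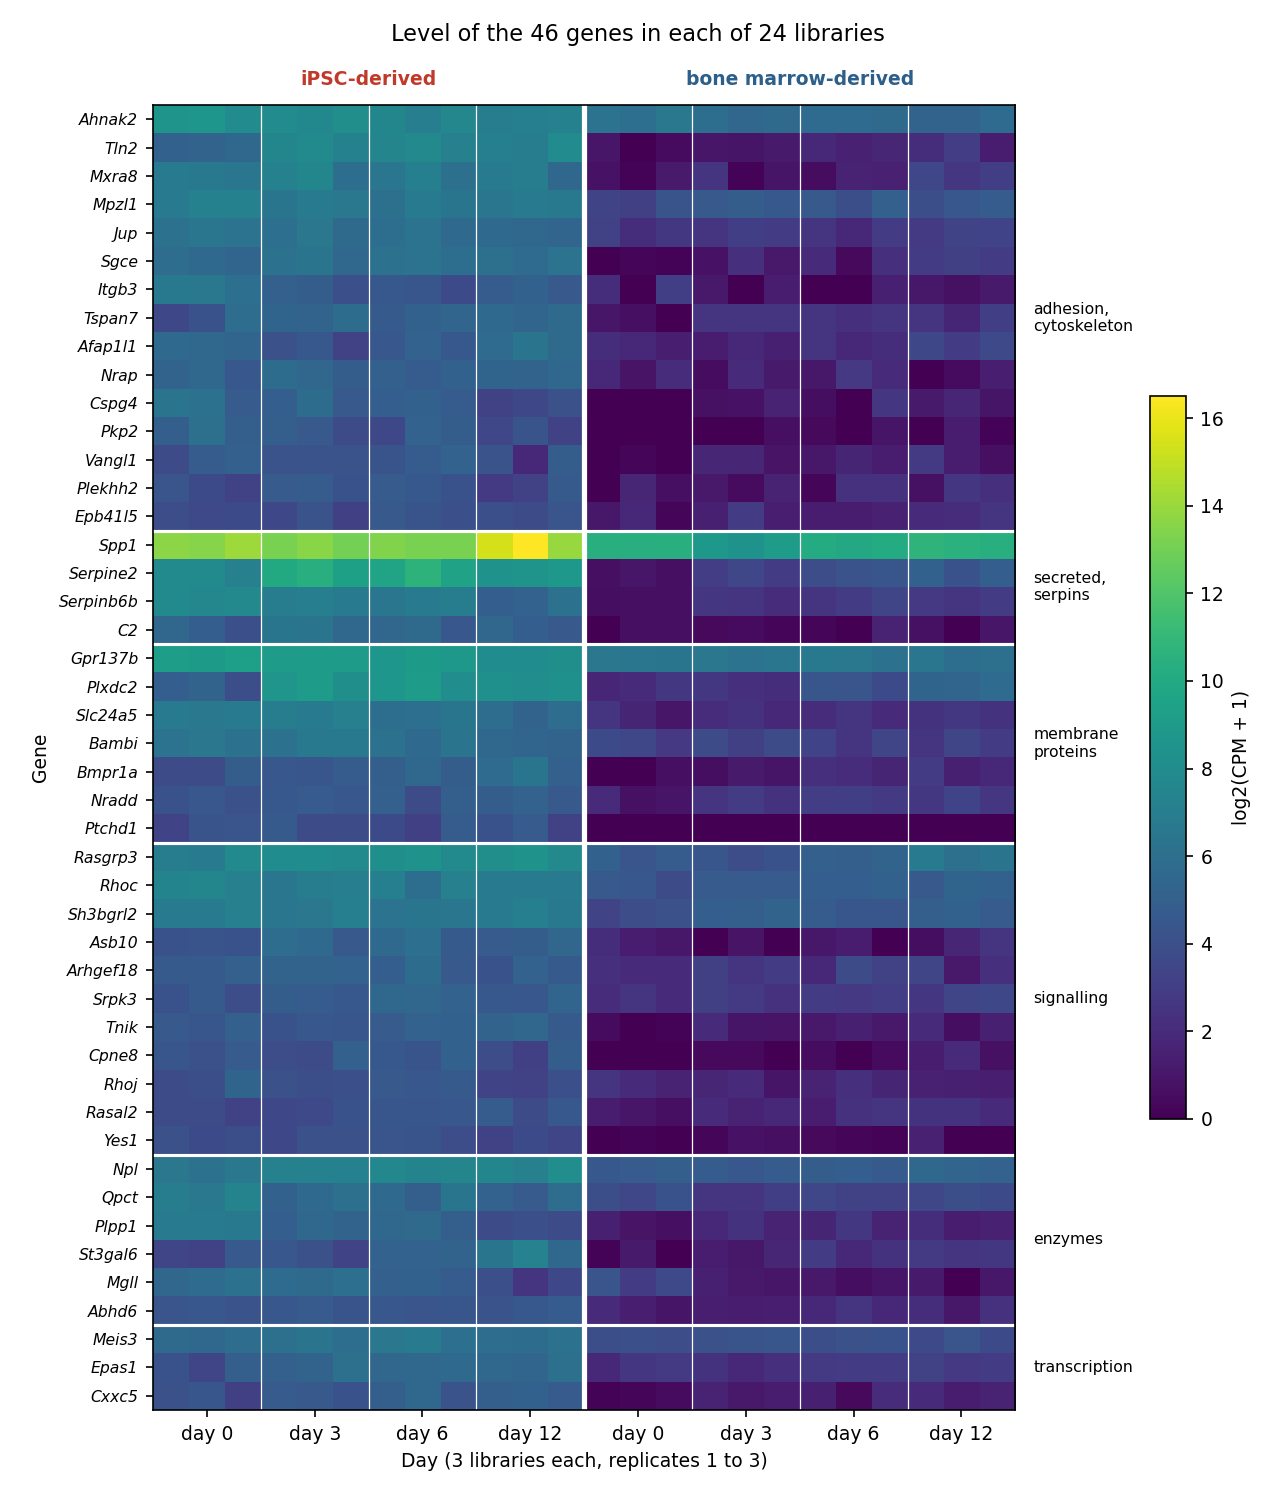
Level of each of the 46 genes (rows, grouped by the role of the protein) in each of 24 libraries (columns, 3 per day), with iPSC-derived cells on the left and bone marrow-derived cells on the right, as log2(CPM + 1). Spp1 is the brightest row in both sources, and Ptchd1 is at 0 in all 12 bone marrow-derived libraries.

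**Figure D2:**
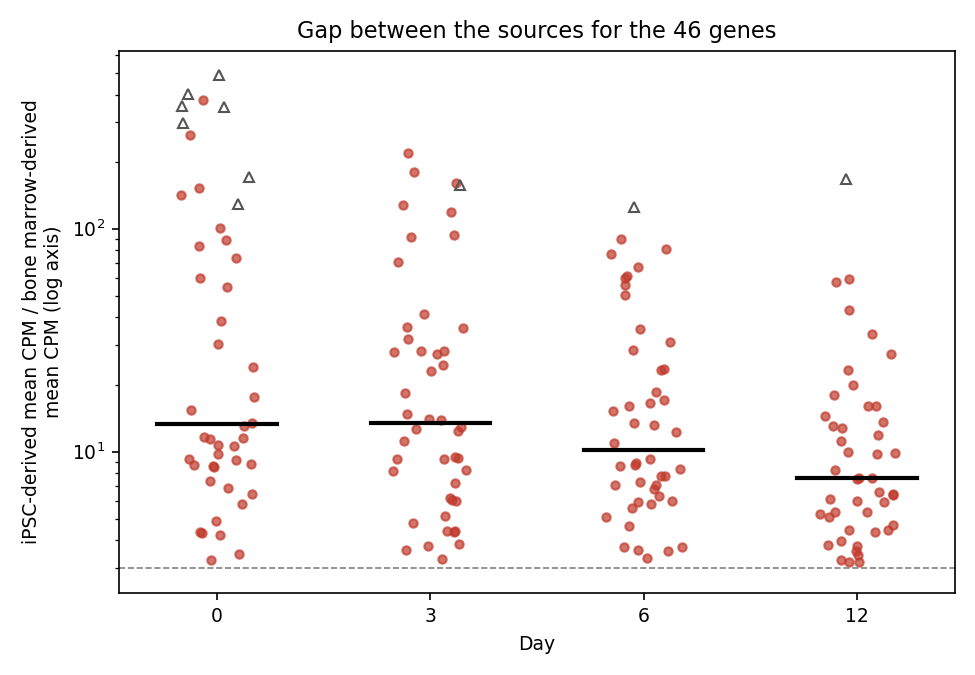
Ratio of the iPSC-derived mean to the bone marrow-derived mean for each member (points) at each day, on a log axis, with the median (bar) and the rule's limit of 3 (dashed line). Triangles are members with at most 3 counts over the 3 bone marrow-derived libraries, drawn at the lower bound or count ratio, and the median is 13.3 at day 0 and 7.59 at day 12.

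Near the limits of the rule, Yes1 entered with an iPSC mean of 10.02 CPM at day 12, Mgll with 10.3 CPM, and Srpk3 with a day 12 ratio of 3.20. Just outside it were St5, with an iPSC mean of 9.95 CPM at day 0, Rps4l, with 9.92 CPM at day 12, and Psat1, with a day 12 ratio of 2.98.

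Secreted proteins and serpins had the widest gap, with a median ratio of 169 at day 0, 78.1 at day 3, 32.9 at day 6 and 24.1 at day 12 over 4 genes. Spp1 encodes osteopontin, a secreted phosphoprotein that binds integrins and is made by macrophages, osteoclasts and some microglia. In TPM, a relative level that corrects for exon length, Spp1 averaged 34524 TPM in iPSC-derived cells and 1814 TPM in BM-derived cells, and the next member, Gpr137b, averaged 422 and 76.8 TPM. In iPSC-derived libraries Spp1 had 12839, 11679 and 17722 CPM at day 0, 9138, 12228 and 8495 at day 3, 10713, 9446 and 9355 at day 6, and 44485, 92952 and 16091 at day 12. In BM-derived libraries it had 1286, 1275 and 1379 CPM at day 0, 441, 337 and 523 at day 3, 1150, 1015 and 1150 at day 6, and 1738, 1478 and 1317 at day 12. The day 12 iPSC-derived libraries were far apart, and the lowest of them fell within the day 0 range. At day 12 Spp1 took 4.45%, 9.30% and 1.61% of the 3 iPSC-derived libraries, against 0.174%, 0.148% and 0.132% of the BM-derived ones. Of the Spp1 exon bases, 18.8% are shared on the same strand with the gene model Gm42793, which averaged 20.1 CPM over all libraries.

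Serpine2 (chr1:79794197-79861180) encodes protease nexin 1, a secreted inhibitor of thrombin and plasminogen activators. It had 229, 229 and 145 CPM in iPSC-derived libraries at day 0, 1024, 1371 and 677 at day 3, 813, 1611 and 733 at day 6, and 352, 364 and 449 at day 12. In BM-derived libraries it had 0.623, 1.03 and 0.626 CPM at day 0, 7.14, 10.6 and 6.28 at day 3, 14, 17.8 and 20.7 at day 6, and 33.7, 17.1 and 30.2 at day 12. The sources stayed apart while both rose, and the ratio of means was 264 at day 0 and 14.4 at day 12. Serpinb6b, an intracellular serpin, moved in opposite directions in the 2 sources. It had 226, 202 and 215 CPM in iPSC-derived libraries at day 0, 121, 134 and 116 at day 3, 89.6, 112 and 120 at day 6, and 30.03, 35.7 and 73.2 at day 12, and in BM-derived libraries 0.498, 0.573 and 0.626 CPM at day 0, 5.02, 4.82 and 3.31 at day 3, 4.78, 6.34 and 10.1 at day 6, and 5.64, 4.60 and 6.55 at day 12. C2, a protease of the classical complement pathway, averaged 29.4 to 70.8 CPM over the days in iPSC-derived cells and 0.325 to 0.750 CPM in BM-derived cells. Of its exon bases, 42.8% are shared with a readthrough gene model, and pairs there could not be assigned to C2.

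Adhesion and cytoskeletal proteins were the largest group, with 15 members. They include junction proteins (Jup, Pkp2), an integrin and its linker (Itgb3, Tln2), surface and matrix-binding proteins (Cspg4, Mxra8, Sgce, Tspan7, Mpzl1) and the polarity protein Vangl1, with Afap1l1, Ahnak2, Nrap, Epb41l5 and Plekhh2. Their median ratio was 24.0 at day 0 and 7.57 at day 12. Jup, plakoglobin, a catenin of desmosomes and adherens junctions, had 48.8, 43.8 and 40.5 CPM in iPSC-derived libraries at day 12 and 72.7, 86.3 and 76.3 at day 0. Its BM-derived libraries had 5.97, 9.62 and 9.14 CPM at day 12 and 8.72, 3.44 and 5.26 at day 0. Pkp2, plakophilin 2, a desmosomal partner of plakoglobin, had 30.6, 68.1 and 31.1 CPM in iPSC-derived libraries at day 0 and no count in the 3 BM-derived libraries, which is at least 355.3-fold apart against a floor of 3 counts over the group. At day 12 Pkp2 had 10.4, 18.6 and 8.27 CPM in iPSC-derived libraries and 0, 1.497 and 0.0993 CPM in BM-derived libraries.

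Itgb3 (chr11:104608000-104670476) encodes integrin beta 3, which pairs with integrin alpha v as a receptor for osteopontin and vitronectin. It had 100.7, 97.5 and 65.4 CPM in iPSC-derived libraries at day 0, 32.6, 27.7 and 15.6 at day 3, 22.5, 20.3 and 12.0 at day 6, and 26.6, 33.3 and 23.1 at day 12. In BM-derived libraries it had 3.49, 0 and 7.51 CPM at day 0, 1.23, 0 and 1.49 at day 3, 0, 0 and 1.77 at day 6, and 1.11, 0.641 and 1.29 at day 12. The day 0 iPSC-derived libraries were the highest, and the source groups did not overlap on any day. Of 22 integrin genes, 10 were at the iPSC floor on all days, and Itgb3 was the one that also met the 3-fold rule, while none met it in the BM direction. The partner gene Itgav averaged 294 CPM in iPSC-derived cells and 297 CPM in BM-derived cells at day 12, and 66.1 and 27.8 CPM at day 0. Tln2, talin 2, which links integrins to actin, had 137, 122 and 250 CPM in iPSC-derived libraries at day 12 and 33.2, 36.3 and 44.8 at day 0. In BM-derived libraries Tln2 had 3.54, 6.84 and 1.39 CPM at day 12 and 0.996, 0 and 0.375 at day 0.

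Mpzl1, a membrane protein related to myelin protein zero, had 87.2, 109 and 99.05 CPM in iPSC-derived libraries and 14.7, 21.5 and 26.8 CPM in BM-derived libraries at day 12. Mxra8, a matrix-remodelling membrane protein, had 112, 122 and 43.8 CPM in iPSC-derived libraries and 10.6, 5.24 and 7.45 CPM in BM-derived libraries at day 12, and 113, 99.4 and 88.3 against 0.747, 0.115 and 1.25 CPM at day 0. Nrap, an actin-binding protein known from striated muscle, had 38.2, 36.3 and 45.3 CPM in iPSC-derived libraries and 0, 0.428 and 1.59 CPM in BM-derived libraries at day 12. Cspg4, the NG2 proteoglycan, a marker of oligodendrocyte precursors and pericytes, had 81.4, 72.4 and 25.2 CPM in iPSC-derived libraries at day 0 and no count in BM-derived libraries, at least 487.5-fold apart. At day 12 it had 8.17, 10.9 and 16.3 CPM in iPSC-derived libraries and 1.33, 2.46 and 0.894 CPM in BM-derived libraries. It was the one gene of 11 oligodendrocyte-lineage markers to meet the rule. Sgce, epsilon-sarcoglycan, a membrane protein from an imprinted gene, had 58.3, 48.2 and 40.7 CPM in iPSC-derived libraries at day 0 and 68.6, 52.5 and 78.2 at day 12. In BM-derived libraries Sgce had 0, 0.229 and 0.125 CPM at day 0 and 6.41, 7.59 and 6.16 at day 12. Sgce was the one gene of 23 imprinted genes to meet the rule, and Igf2r, named after its values were seen, was the one that met the mirror rule.

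The 7 membrane proteins without an adhesion role covered receptors and transporters, and their median ratio was 11.4 at day 0 and 6.59 at day 12. Ptchd1 (chrX:155573455-155623814), a patched-domain protein linked in human to intellectual disability, had 9.29, 18.2 and 19.2 CPM in iPSC-derived libraries at day 0, 24.9, 12.6 and 12.9 at day 3, 12.2, 7.80 and 26.4 at day 6, and 17.2, 26 and 8.07 at day 12. It had 0 counts in all 12 BM-derived libraries. Against a floor of 3 counts over the 3 BM-derived libraries, it was at least 128.8-fold higher at day 0, at least 156.7-fold at day 3, at least 125-fold at day 6 and at least 167.4-fold at day 12. These bounds cover counting error only.

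Plxdc2, a plexin-domain receptor for the secreted protein PEDF, showed the widest swing of the iPSC day means. It had 29.1, 37.0 and 14.7 CPM in iPSC-derived libraries at day 0, 381, 531 and 295 at day 3, 402, 538 and 270 at day 6, and 308, 267 and 304 at day 12. In BM-derived libraries it had 2.49, 2.98 and 5.51 CPM at day 0, 5.47, 3.90 and 3.54 at day 3, 20.8, 19.5 and 11.9 at day 6, and 39.7, 40.9 and 52.8 at day 12. BM-derived libraries at day 12 exceeded the day 0 iPSC-derived ones, and the ratio within a day ran from 7.37 at day 0 to 93.5 at day 3 and 6.59 at day 12. Members of the bone morphogenetic protein pathway were its receptor Bmpr1a, with 54.6, 84.8 and 32.5 CPM in iPSC-derived and 6.19, 1.71 and 2.78 CPM in BM-derived libraries at day 12, and its pseudoreceptor Bambi, with 47.3, 40.8 and 36.9 against 4.65, 9.94 and 6.36 CPM. Gpr137b, a lysosomal membrane protein, had 256, 256 and 295 CPM in iPSC-derived libraries and 87.5, 61.0 and 65.8 CPM in BM-derived libraries at day 12. Pairs that map to both Gpr137b and its near-identical pseudogene Gpr137b-ps were not counted for either, so the level of each can be too low. Gpr137b-ps averaged 78.8 CPM in iPSC-derived cells and 36.9 CPM in BM-derived cells at day 12. Slc24a5, a cation exchanger known from melanosomes, averaged 52.1 ± 13.3 CPM in iPSC-derived cells and 4.68 ± 0.580 CPM in BM-derived cells at day 12 (SD, n = 3 each), and 39.5% of its exon bases lie opposite Myef2, with counting that did not use strand.

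The 11 signalling members included small GTPases and their regulators, kinases and adaptors, with a median ratio of 8.76 at day 0 and 5.38 at day 12. Rasgrp3, which activates Ras and Rap, had 284, 362 and 214 CPM in iPSC-derived libraries and 105, 66.4 and 80.4 CPM in BM-derived libraries at day 12. Tnik, a kinase of the Wnt and JNK pathways, averaged 34.5 ± 9.41 CPM in iPSC-derived cells and 1.74 ± 1.23 CPM in BM-derived cells at day 12, and the Src-family kinase Yes1 averaged 10.02 ± 1.70 against 0.627 ± 1.09 CPM (SD, n = 3 each). Yes1 had 383 counts over the 3 iPSC-derived libraries at day 0 and 1 over the 3 BM-derived ones. Asb10, an ankyrin-repeat protein with a SOCS box, had 26.2, 28.5 and 41.9 CPM in iPSC-derived libraries and 0.553, 2.35 and 4.47 CPM in BM-derived libraries at day 12. The other members of the group were Rhoc, Rhoj, Rasal2, Arhgef18, Srpk3, Cpne8 and Sh3bgrl2.

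The 6 enzymes had a median ratio of 9.90 at day 0 and 6.89 at day 12. Mgll and Abhd6 both hydrolyse the endocannabinoid 2-arachidonoylglycerol. Mgll had 41.8, 52.5 and 69.4 CPM in iPSC-derived libraries at day 0, 53.8, 51.1 and 63.2 at day 3, 32.7, 33.2 and 26.9 at day 6, and 15.5, 4.57 and 10.8 at day 12. In BM-derived libraries Mgll had 19.3, 6.42 and 11.6 CPM at day 0, 1.79, 1.23 and 1.03 at day 3, 1.22, 0.514 and 0.887 at day 6, and 1.33, 0 and 1.09 at day 12. Abhd6 was the steadier of the pair, averaging 19.3 to 22.1 CPM in iPSC-derived cells and 1.53 to 3.39 CPM in BM-derived cells over the days. St3gal6, a sialyltransferase, had 85.4, 160 and 44.9 CPM in iPSC-derived and 5.86, 4.81 and 5.46 CPM in BM-derived libraries at day 12, and Npl, which breaks down free sialic acid, had 188, 143 and 276 against 44.1, 40.3 and 34.8 CPM. Of the St3gal6 exon bases, 26.4% lie opposite Dcbld2. Plpp1, a lipid phosphate phosphatase, had 12.5, 15.2 and 13.5 CPM in iPSC-derived libraries at day 12 and 107, 113 and 99.9 at day 0, and its BM-derived libraries had 3.43, 1.39 and 1.89 CPM at day 12 and 1.74, 0.802 and 0.626 at day 0. Qpct, which forms N-terminal pyroglutamate on secreted proteins and chemokines, averaged 40.1 ± 17.8 against 12.5 ± 2.16 CPM at day 12 (SD, n = 3 each).

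The 3 transcriptional members were Epas1, Meis3 and Cxxc5. Epas1, hypoxia-inducible factor 2 alpha, had 46.5, 40.1 and 67.7 CPM in iPSC-derived libraries and 7.96, 5.77 and 6.55 CPM in BM-derived libraries at day 12, and 16.6, 9.73 and 31.6 against 2.74, 5.04 and 6.01 CPM at day 0. The members with less detail above, Meis3, Nradd, Cxxc5, Tspan7, Arhgef18, Rhoj, Plekhh2, Rasal2 and Epb41l5, had iPSC day means of 11.1 to 89.2 CPM, BM day means of 0.243 to 18.5 CPM and ratios of 3.48 to 59.9.

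**Figure D3:**
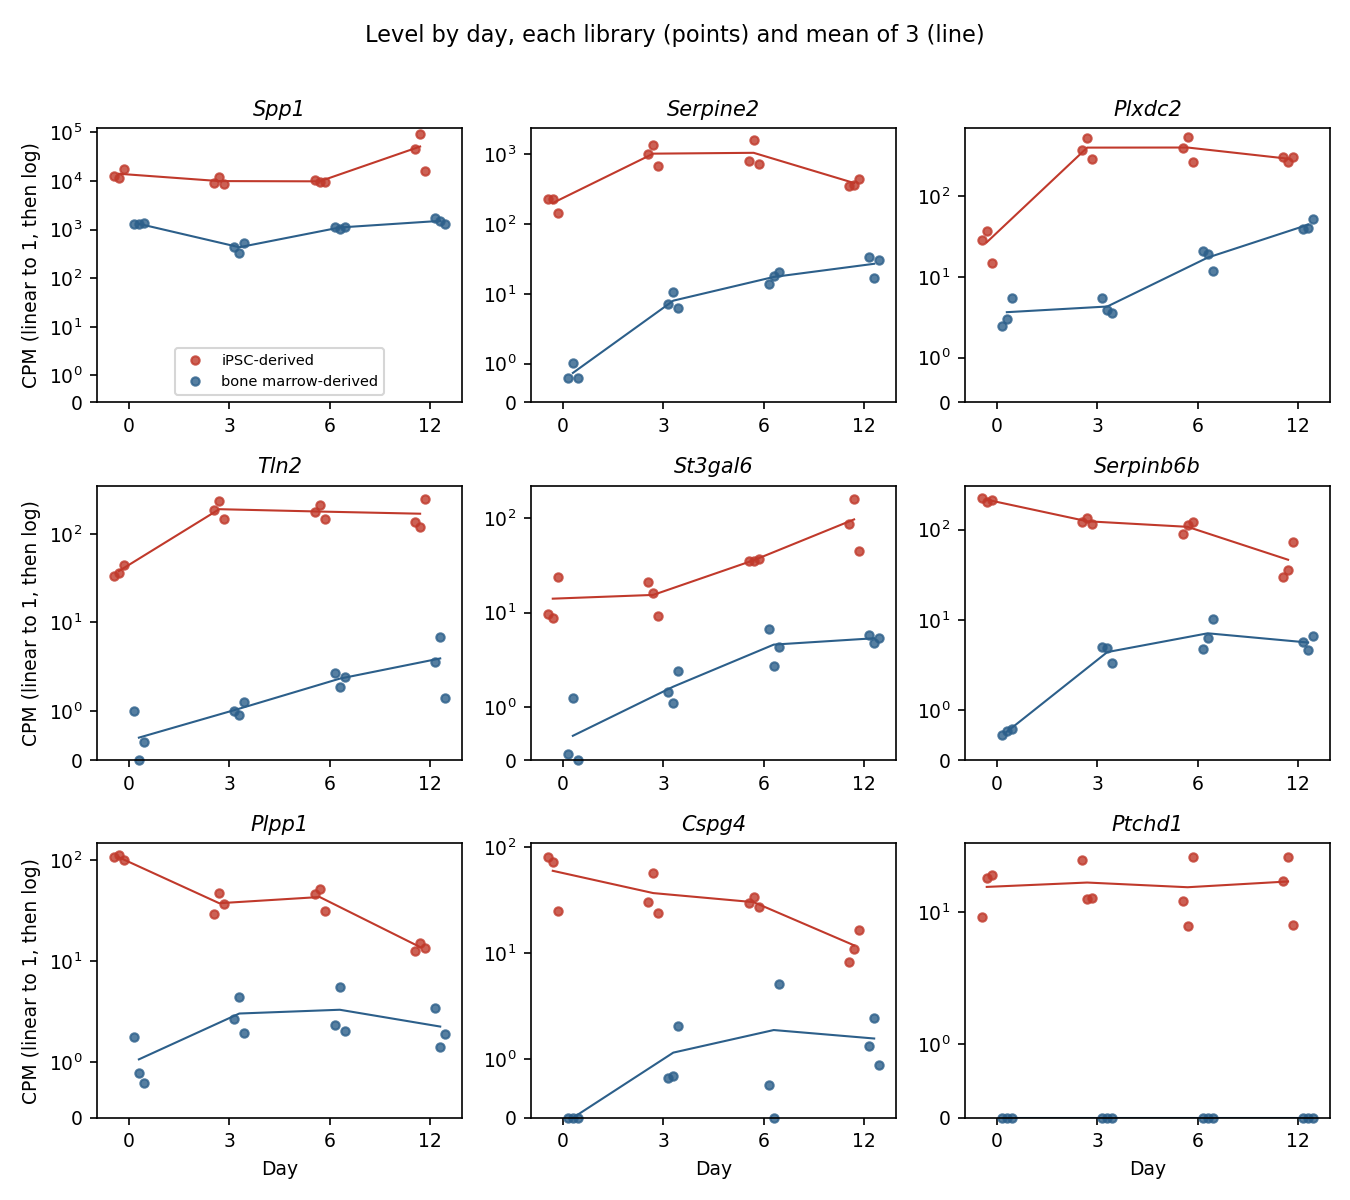
CPM of 9 members by day in each library (points) with the mean of 3 joined by a line, iPSC-derived in red and bone marrow-derived in blue, on an axis that is linear to 1 and logarithmic above. Ptchd1 stays at 0 in bone marrow-derived cells, Serpinb6b and Plpp1 run down in iPSC-derived cells, and the 3 day 12 iPSC-derived libraries of Spp1 span 16091 to 92952 CPM.

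The rule sets a level for each day but does not compare days within a source, so changes over time were tested. The tests used edgeR's quasi-likelihood model on all genes, with Benjamini-Hochberg adjustment over 15000 genes, and a call is an adjusted p under 0.05. All 46 members passed the filter on low counts. The iPSC level that chose them also carried them through it, so the shares of members called are set beside the shares of all genes and not read as a test of the list.

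Within iPSC-derived cells, 10 of 46 members differed between day 3 and day 0, close to the 19.4% of all genes called. Of these, 7 were higher at day 3 and 3 were lower, against 11.2% and 8.14% of all genes. Plxdc2 was 4.10 ± 0.33 log2 units higher (SE, edgeR adjusted p = 1.02e-08), Serpine2 was 2.55 ± 0.30 higher (edgeR adjusted p = 1.75e-06) and Tln2 was 2.52 ± 0.35 higher (edgeR adjusted p = 1.85e-05). Epas1 (1.42 ± 0.34), Npl (1.01 ± 0.17) and Rasgrp3 (0.89 ± 0.25) also rose, and Afap1l1 (−1.31 ± 0.33), Plpp1 (−1.32 ± 0.32) and Qpct (−1.14 ± 0.32) fell. Rasgrp3 lost its call without day 0 replicate 1 or 2, and Qpct without day 3 replicate 1 or 2 or day 0 replicate 3, with edgeR adjusted p-values up to 0.0972.

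By day 12, 19 of 46 members differed from day 0 in iPSC-derived cells, against 24.7% of all genes. Of these, 10 were higher and 9 lower, against 14% and 10.7% of all genes. Plxdc2 (3.58 ± 0.33, edgeR adjusted p = 4.90e-08), St3gal6 (2.93 ± 0.52, edgeR adjusted p = 0.000236), Tln2 (2.26 ± 0.35), Spp1 (2.03 ± 0.40), Bmpr1a (1.77 ± 0.45), Epas1 (1.52 ± 0.34), Npl (1.34 ± 0.18) and Serpine2 (1.08 ± 0.28) were among those that rose. The fall was largest for Plpp1 (−2.82 ± 0.34, edgeR adjusted p = 9.16e-07), Mgll (−2.30 ± 0.45), Cspg4 (−2.21 ± 0.64), Serpinb6b (−2.10 ± 0.24) and Qpct (−1.57 ± 0.33), and Ahnak2, Gpr137b, Slc24a5 and Bambi fell by less. Day 12 replicate 2 weighed on several of these. Without it the Spp1 change was 1.24 and the St3gal6 change 2.32 on the log2 scale, and Bmpr1a and Slc24a5 lost their calls with edgeR adjusted p-values of 0.0508 and 0.0988. Without day 0 replicate 3 the St3gal6 change was 3.56. Cspg4 lost its call without either of replicates 1 and 2 at day 0 or at day 12, and Bambi in 5 of 6 such fits.

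Jup and Ptchd1 were among 25 members called in neither iPSC test. Their day 12 changes were −0.69 ± 0.28 for Jup (edgeR adjusted p = 0.0731) and 0.29 ± 0.53 for Ptchd1 (edgeR adjusted p = 0.737). Itgb3, which averaged 27.7 ± 5.18 CPM at day 12 and 87.9 ± 19.5 CPM at day 0 (SD, n = 3), had a change of −1.52 ± 0.72 and an edgeR adjusted p of 0.133. Over the 4 iPSC day means, 21 members spanned less than 2-fold. The matching shares of all genes were not computed for the 25 or the 21 members. Neither count is therefore read as a trait of the members.

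Within BM-derived cells, more of the called members were higher than lower on both days. Members near 0 in these cells, such as Ptchd1, entered the BM tests only through their iPSC level. The shares of members called are therefore descriptions and not a test of the list. At day 3, 18 of 46 differed from day 0, against 18.5% of all genes, with 13 higher and 5 lower (11.9% and 6.61% of all genes). Serpine2 was 3.29 ± 0.47 higher (edgeR adjusted p = 1.96e-05) and Serpinb6b 2.85 ± 0.40 higher (edgeR adjusted p = 1.04e-05), and Sh3bgrl2 rose by 1.21 ± 0.23. Mgll was lower by −3.28 ± 0.52 (edgeR adjusted p = 5.98e-05), Spp1 by −1.68 ± 0.39 and Qpct by −1.44 ± 0.36. Of the 18 calls, 10 were lost in at least 1 of the 6 fits that left out a library.

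At day 12, 23 of 46 members differed from day 0 in BM-derived cells, against 23.8% of all genes, with 20 higher and 3 lower (14.7% and 9.08% of all genes). The median log2 change of the members was 1.03, against 0.04 for all genes tested. The rule bounds the BM mean from above on each day, and the members' median BM mean at day 0 was 1.91 CPM. The direction of the BM changes, at day 3 as at day 12, is therefore not independent of how members were chosen. Serpine2 rose by 4.94 ± 0.44 (edgeR adjusted p = 3.40e-08), Plxdc2 by 3.43 ± 0.36 (edgeR adjusted p = 3.17e-07), Serpinb6b by 3.11 ± 0.39, Afap1l1 by 1.74 ± 0.37 and Rasgrp3 by 1.48 ± 0.26. Mgll fell by 4.10 on the log2 scale (SE 0.56, edgeR adjusted p = 6.36e-06) and the smaller falls were −1.07 ± 0.20 for Ahnak2 and −0.48 ± 0.14 for Gpr137b. The Gpr137b call was lost in 3 of 6 fits without a single library (edgeR adjusted p up to 0.0979). It was also lost without scaling factors (edgeR adjusted p = 0.134) and with no filter on low counts (edgeR adjusted p = 0.0525). Bmpr1a, St3gal6 and Tln2 rose by 3.86 ± 0.77, 3.28 ± 0.73 and 2.92 ± 0.63, from BM levels under 1 CPM at day 0. Without a single library these ran from 3.22 to 7.86 for Bmpr1a (highest without day 0 replicate 3), from 2.73 to 5.98 for St3gal6 (highest without day 0 replicate 2) and from 2.23 to 4.17 for Tln2 (highest without day 0 replicate 1).

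For members with at most 3 counts over the day 0 BM-derived libraries the fitted change is no bound, and counts are given instead. Sgce had 191 counts at day 12 and 3 at day 0, a ratio of 55.4 after scaling to library size (exact 95% interval 18.7 to 270.8). Vangl1 had 74 and 2, a ratio of 32.2 (8.60 to 270.6). Cpne8, a calcium-dependent membrane-binding copine, had 47 counts at day 12 and none at day 0, at least 13.6-fold higher, Cspg4 had 44 and none, at least 12.75-fold, and Pkp2 had 15 and none, at least 4.35-fold. The Vangl1 call was lost without day 12 replicate 1, which held most of its day 12 level, and the Cspg4 call in 4 of 6 fits without a single library. Pkp2 was not called (edgeR adjusted p = 0.119), and nearly all of its day 12 counts came from replicate 2. These bounds and intervals pool the libraries of a group and cover counting error only, not the spread between libraries.

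Summed levels of markers of other cell types differed between day 12 and day 0 in both directions. The summed level of 16 neuron markers was 29.99 to 34.3 CPM at day 12 and 1.12 to 1.83 CPM at day 0 in BM-derived libraries, and 20.7 to 30.3 CPM and 17.2 to 25.02 CPM in iPSC-derived libraries. A sum is led by its most abundant genes. Of the 14 neuron markers tested, 7 were called higher and 0 lower at day 12 in BM-derived cells. In iPSC-derived cells 9 were called higher and 1 lower. For 12 fibroblast markers the sums were 145 to 244 CPM at day 12 and 4.51 to 20.5 CPM at day 0 in BM-derived libraries, and 270 to 513 CPM and 6.68 to 32.7 CPM in iPSC-derived libraries. In each source, 8 of the 11 fibroblast markers tested were called higher at day 12 and 0 lower. At day 12 Gad1 and Slc17a6 were the neuron markers at 0 in all iPSC-derived libraries and Thy1 the fibroblast marker at 0 in all BM-derived libraries. The 11 oligodendrocyte markers summed to 194 to 270 CPM at day 12 and 130 to 135 CPM at day 0 in BM-derived libraries, and to 179 to 299 CPM and 148 to 175 CPM in iPSC-derived libraries, with Mog at 0 in all BM-derived libraries at day 12. With 10 oligodendrocyte markers tested, 4 were called higher and 0 lower in BM-derived cells, and 6 higher and 1 lower in iPSC-derived cells. Cspg4, itself a member, is among these markers, so the oligodendrocyte sums hold part of a member's own change. The sums of 11 neural progenitor markers were lower at day 12, with 364 to 432 CPM against 527 to 616 CPM at day 0 in BM-derived libraries, and 338 to 395 CPM against 2034 to 2307 CPM in iPSC-derived libraries. Taken singly, more of these markers were called higher than lower at day 12. Of the 11 tested, 5 were higher and 1 lower in BM-derived cells, and 7 were higher and 1 lower in iPSC-derived cells. The 10 endothelial markers summed to 18.6 to 19.8 CPM at day 12 and 5.04 to 8.38 CPM at day 0 in BM-derived libraries, and to 6.73 to 20.6 CPM and 33.5 to 50.1 CPM in iPSC-derived libraries. Only 1 of the 8 endothelial markers tested was called higher at day 12 in BM-derived cells, and 0 lower. For iPSC-derived cells 0 were called higher and 2 lower. The 12 astrocyte markers summed to 123 to 148 CPM and 84.5 to 104 CPM in BM-derived libraries, and to 125 to 170 CPM and 121 to 192 CPM in iPSC-derived libraries, where the ranges overlap. Of the 10 astrocyte markers tested, 8 were called higher and 1 lower at day 12 in BM-derived cells. In iPSC-derived cells 8 were called higher and 2 lower. Among all genes, 14.7% were called higher and 9.08% lower at day 12 in BM-derived cells. The shares in iPSC-derived cells were 14% and 10.7%. The part of these other cell types in the members' changes was not tested.

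The change in the gap itself was tested as an interaction, the log2 change between days 12 and 0 in iPSC-derived cells less the same change in BM-derived cells. It was called for 14 of 46 members, against 20.1% of all genes, with 2 higher and 12 lower (9.08% and 11% of all genes), and the members' median was −0.89. The rule bounds the gap from below at both days and was tightest at day 12. Neither the direction of this median nor the single calls are therefore independent of how members were chosen. Serpinb6b had the smallest adjusted p, at −5.21 ± 0.45 (edgeR adjusted p = 1.98e-08). Next were Serpine2 at −3.86 ± 0.54 (edgeR adjusted p = 1.77e-05) and Plpp1 at −3.72 ± 0.56 (edgeR adjusted p = 2.62e-05). The gap widened for Spp1, by 2.00 ± 0.55 (edgeR adjusted p = 0.0127), and for Npl, by 0.93 ± 0.25 (edgeR adjusted p = 0.00862). The Spp1 call was lost when only the groups compared were fitted (2.02, edgeR adjusted p = 0.0512), and without iPSC-derived day 12 replicate 2 the value was 1.21 (edgeR adjusted p = 0.0456). For Plxdc2, which rose in both sources, the difference was 0.15 ± 0.48 (edgeR adjusted p = 0.885), and for Mgll, which fell in both, it was 1.80 ± 0.70 (edgeR adjusted p = 0.0744).

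**Figure D4:**
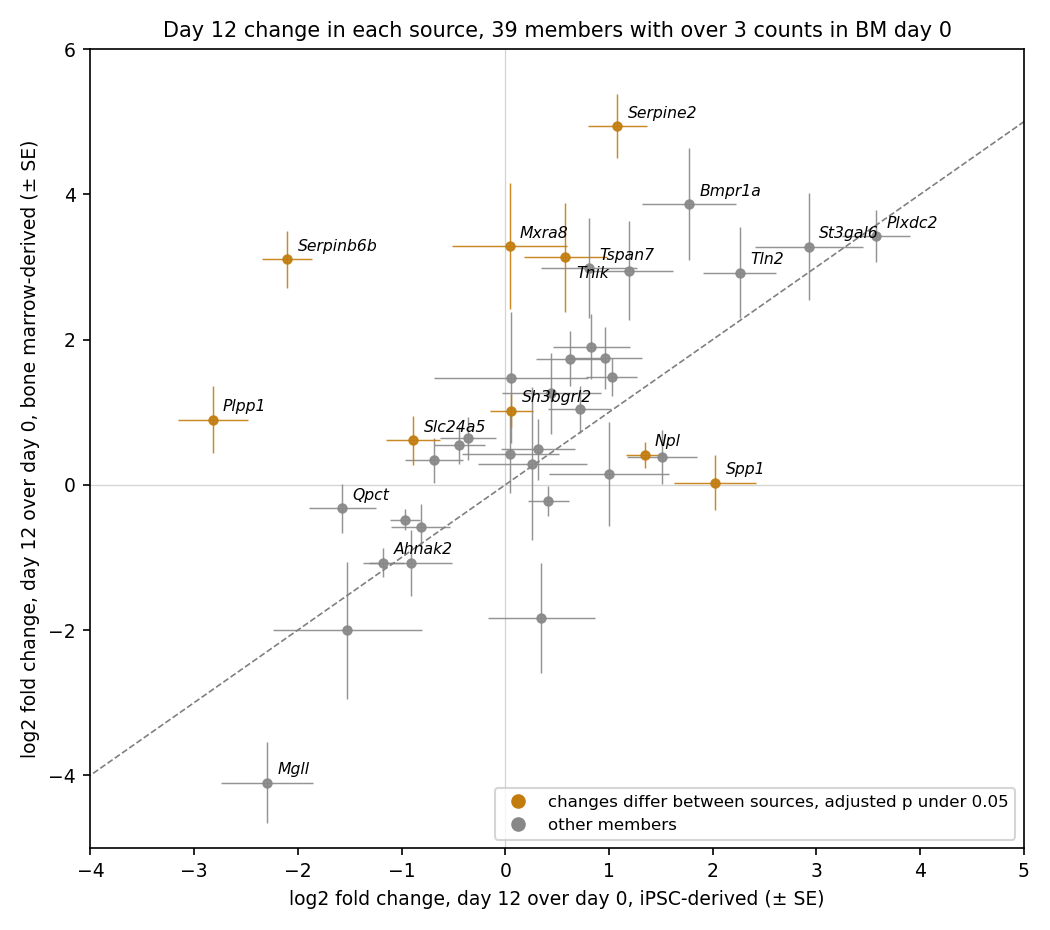
Log2 change from day 0 to day 12 in iPSC-derived cells (horizontal) against that in bone marrow-derived cells (vertical), each ± SE, for the 39 members with over 3 counts in bone marrow-derived cells at day 0. The dashed line marks equal change, orange points are members whose changes differ between the sources at an adjusted p under 0.05, and Serpinb6b and Plpp1 lie at the upper left.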

How the data were processed

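The table holds raw counts of read pairs per gene, deposited by the authors for 24 libraries. Per the labels' protocols, libraries were made with a modified SMART-seq v2 protocol and sequenced in pairs. Per the submitters' processing notes, STAR and featureCounts were used with GRCm38 (mm10). Per the file header, featureCounts 1.5.0-p1 counted pairs over the exons of GENCODE vM9 genes, with no strand option and no option to count pairs that map to several places or genes, so overlapping and antisense genes can share or lose pairs.

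Samples were grouped from the labels alone. CPM used the library total as deposited, and TPM used the exon length in the table. Symbols came from GENCODE vM21 and were found for 47224 of 47643 IDs. Changes over time were tested with edgeR 4.0.16 (quasi-likelihood, robust, TMM scaling, filter on low counts at a minimum of 10 per library and 15 in total), with 1 coefficient for each of 8 groups, 5 tests and Benjamini-Hochberg adjustment over 15000 genes. The common biological coefficient of variation was 0.338. The procedure was tested on simulated data. DESeq2 1.42.0, other filters and scalings, a replicate block and the loss of each library were alternatives. Replicates differed by more than sampling noise, with a lowest chi-square of 6.40 per degree of freedom. Exact intervals and floors of 3 counts have a 95% level where stated and cover counting error only.

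The members and gene lists were chosen with earlier results of these data known, and the role groups were assigned after the members were seen. Genes named with values of their own were chosen by level, gap, change, list or margin. They were the 15 highest in iPSC-derived cells and the 15 with the largest ratio of the lowest iPSC-derived to the highest BM-derived library. The others had the largest called changes in each test, were in a list, or lay nearest the limits of the rule (Yes1, Mgll and Srpk3). Of the 46 members, 37 met this, and for several of these the level in each library is given only in the heat map.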

Additional observations from a re-analysis of the deposited data

Results flagged for a closer look

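The change from day 0 to day 12 differed between iPSC-derived and BM-derived cells for 14 members, by an interaction term in edgeR with adjusted p under 0.05. Among all genes tested 20.1% were called, 11% with a negative and 9.08% with a positive value. The rule bounds the gap from below at both days, so the calls and their direction are not independent of how members were chosen. Each value is the log2 change in iPSC-derived cells less the same change in BM-derived cells. The 12 negative values were −8.91 for Cspg4, −7.00 for Cpne8, −6.82 for Pkp2, −5.21 for Serpinb6b, −5.13 for Vangl1, −4.92 for Sgce, −3.86 for Serpine2, −3.72 for Plpp1, −3.25 for Mxra8, −2.56 for Tnik, −1.50 for Slc24a5 and −0.96 for Sh3bgrl2. The 2 positive values were 0.93 for Npl and 2.00 for Spp1. Cspg4, Cpne8, Pkp2, Vangl1 and Sgce had at most 3 counts over the 3 BM-derived libraries at day 0, so the size of their values depends on the model's prior count and is no bound.

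Serpinb6b was the clearest case of opposite directions, with a change of −2.10 ± 0.24 in iPSC-derived cells and 3.11 ± 0.39 in BM-derived cells (SE), and no single library changed either call. Plpp1 changed by −2.82 ± 0.34 in iPSC-derived cells and by 0.90 ± 0.46 in BM-derived cells, where it was not called (edgeR adjusted p = 0.168). Of the 14 calls, 9 were kept in each of the 12 fits that left out a library, and 7 under all alternatives run. The other calls, Pkp2, Mxra8, Tnik, Sh3bgrl2 and Slc24a5, were each lost in at least 1, and the Pkp2 value moved to −3.79 (edgeR adjusted p = 0.485) without BM-derived day 12 replicate 2.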

How the results depend on the processing

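The rule gave 46 genes, 89 at a 2-fold limit, 30 at 5-fold, 23 at a floor of 20 CPM, and 18 where the lowest iPSC-derived library had to be at least 3 times the highest BM-derived one. It gave 54 with TMM-scaled library sizes and 67 at a floor of 5 CPM, which kept all 46. Without single libraries it gave 43 to 55 genes, and 32 members stayed in every time. The members called were 8 to 12 at day 3 in iPSC-derived cells without single libraries, 15 to 19 at day 12, 12 to 16 at day 3 in BM-derived cells, 21 to 24 at day 12, and 11 to 15 for the difference between sources. Calls at day 3 in BM-derived cells were 11 when only the compared groups were fitted, with 33 members tested, and those for the difference were 22 with no filter on low counts. Of 1080 values of called members under these alternatives, none changed direction and 969 kept the call. Without scaling factors the median of all genes moved to −0.14 at day 3 in iPSC-derived cells, 0.22 at day 12 in BM-derived cells and −0.31 for the difference. The genes called higher and lower were then 1259 and 2082 (1686 and 1221 with scaling), 2817 and 886 (2206 and 1362), and 846 and 2473 (1362 and 1647), the members called for the difference were 1 higher and 20 lower, and Npl lost its call there. With Spp1 left out of library sizes, chosen after seeing the data, the members called were 10, 19, 16, 23 and 13 in the 5 tests. Replicate numbers are shared across groups. Same-number libraries deviated together (correlation over 0.1) in 4 of 18 iPSC-derived and 0 of 18 BM-derived pairs, with a highest correlation of 0.161 in iPSC-derived pairs. Pairs of different number were not set beside these, so the check cannot decide whether the numbers pair the samples. The main tests used no pairing. With a replicate block the calls were 12, 19, 18, 25 and 18. At 5839316 to 11805478 counts, BM-derived levels under about 1 CPM rest on few counts.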
